A study of Mus musculus with 6 samples.

Results

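This account concerns 9 genes of pericellular proteolysis: the plasminogen activators Plau and Plat, the activator receptor Plaur, the metalloproteinase inhibitors Timp1, Timp2 and Timp3, and the metalloproteinases Mmp14, Mmp15 and Adamts1. They and the related lists below were chosen by gene name with earlier results of these data known. Their counts and medians set beside all genes are thus descriptions and not independent evidence. All 9 genes were found among the 14003 genes of the deposited table. RNA of cells labelled MC3T3-E1, a mouse preosteoblast line of wild-type genotype kept in medium with fetal bovine serum, was sequenced in 3 samples given 200 µM sulfasalazine for 24 h and in 3 untreated control samples. The labels name no vehicle and do not say whether replicates were separate cultures, so p-values speak only of how far these 6 samples spread, and that spread can be a technical one. Values are FPKM, that is, fragments per kilobase of gene length, scaled to the mapped fragments of a library.

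As background, urokinase (encoded by Plau) and tissue plasminogen activator (Plat) cleave plasminogen to plasmin, a protease that dissolves fibrin and activates matrix metalloproteinase precursors. The urokinase receptor (Plaur) holds urokinase at the cell surface. Tissue inhibitors of metalloproteinases (TIMPs) block the active sites of matrix metalloproteinases, and TIMP2 also helps the membrane-anchored protease MMP14 to activate the gelatinase proMMP2. In bone these enzymes are known for osteoid and matrix turnover by osteoblasts and osteoclasts.

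The libraries held 15980942 to 21579133 reads on genes, recovered from the FPKM steps. Control replicate 3, the shallowest, scored 42.6 on the first principal component (88.6% of the variance), against 65.3 and 63.2 for the other control libraries and -59.2 to -54.1 for the sulfasalazine libraries. Of 9 osteoblast markers 5 were in the table, with 3 below a mean of 1 FPKM. Runx2 was expressed at 16.8 to 19.8 FPKM with sulfasalazine and 20.9 to 24.9 FPKM in controls. Spp1 was expressed at 851 to 1057 FPKM with sulfasalazine and 1513 to 2077 FPKM in controls. Col1a1, the main bone collagen gene, stood at 0.178 to 0.655 FPKM with sulfasalazine and 0.0561 to 0.651 FPKM in controls, and Sp7 was listed at 0 in all libraries but sulfasalazine replicate 2. Of the osteoblast markers, Col1a1 and Sp7 were thus at or near 0 in cells labelled preosteoblast, while Runx2 and Spp1 were not. The summed level of 6 epithelial markers in the table was 1884 to 2093 FPKM with sulfasalazine and 1293 to 1452 FPKM in controls, nearly all of it keratin genes. Their directions differed: Krt8 averaged 902 ± 58.1 FPKM with sulfasalazine and 287 ± 33.4 FPKM in controls, while Krt19 averaged 154 ± 42.9 FPKM with sulfasalazine and 350 ± 43.2 FPKM in controls (SD, n = 3 each). Summed levels with sulfasalazine and in controls were 2.19 to 6.32 and 4.61 to 11.4 FPKM for 4 fibroblast and pericyte markers, 17.8 to 28.7 and 32.0 to 56.3 FPKM for 4 macrophage and osteoclast markers, nearly all of it Cd68, and 0.0877 to 0.139 and 0.0844 to 0.214 FPKM for 3 endothelial markers. The part of other cell types in the results was not tested, and in bulk RNA fewer cells of a type and less RNA per cell cannot be told apart.

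Sulfasalazine-treated cells had less Plau, Plaur and Timp1 mRNA and more Mmp15 mRNA than untreated cells. Mmp14 was also called lower, by a small margin, and that call was lost under 9 of the 18 alternatives run, among them a threshold of 0.01. Of the 9 genes, 8 passed the filter on low values (1 FPKM or more in 3 or more libraries), of which 4 fell, 1 rose and 3 did not pass the test (limma on log2(FPKM + 1), Benjamini-Hochberg adjusted p under 0.05 over the 10338 genes tested). Over all tested genes 66.5% were called, 29.3% as lower and 37.2% as higher. The median log2 fold change of the 8 genes was -0.69, against 0.08 over all tested genes, and without the filter it was -0.79 over the 9 genes and 0.03 over all genes. The 3 sulfasalazine values lay wholly below the 3 control values for 6 of the 9 genes and wholly above them for 1. Over all genes of the table the groups did not overlap for 60.6%. Over all tested genes they did not overlap for 71.4%, and the sulfasalazine values lay wholly below for 31.1%.

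**Figure D1:**
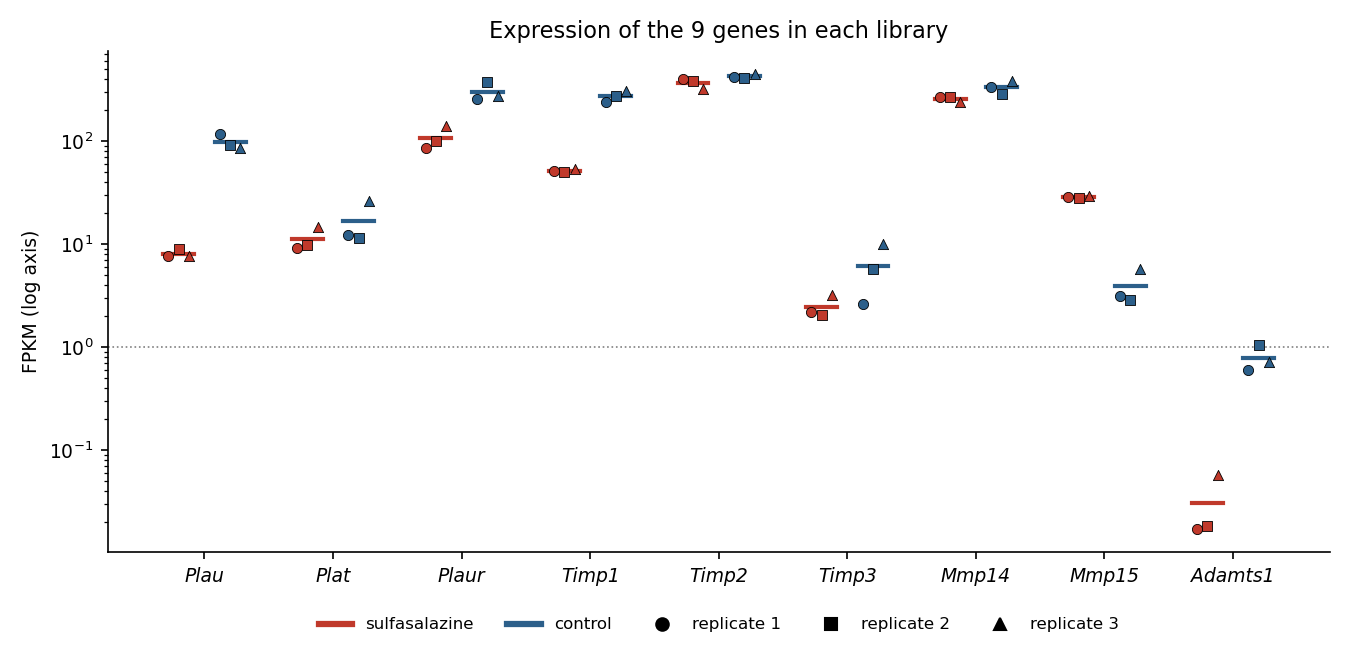
FPKM (log axis) of each of the 9 genes in the 3 sulfasalazine libraries (red, left) and the 3 control libraries (blue, right); symbols are replicates, bars are group means and the dotted line marks 1 FPKM. Plau, Plaur, Timp1 and Adamts1 sit lower with sulfasalazine and Mmp15 sits higher, while the groups overlap for Plat and Timp3.

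Plau, the gene for urokinase (ENSMUSG00000021822, GRCm38 chromosome 14, 20836660 to 20843385, plus strand, protein coding), had 7.60, 8.94 and 7.67 FPKM in the sulfasalazine libraries, against 117, 91.5 and 86.1 FPKM in control replicates 1, 2 and 3. The groups lay far apart, with the highest treated library below every control library. These values rested on 286 to 345 reads with sulfasalazine and 2665 to 4432 reads in controls. Plau averaged 8.07 ± 0.75 FPKM with sulfasalazine and 98.3 ± 16.6 FPKM in controls (SD, n = 3 each), a ratio of means of 0.0821. The log2 fold change was -3.44 (SE 0.15, limma adjusted p = 3.5e-06), lower in 3 of 3 treated libraries, and ranked 35 from the most negative among the 10338 genes tested.

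Plat, the gene for tissue plasminogen activator (ENSMUSG00000031538, chromosome 8, 22757727 to 22782844, plus strand), had 9.16, 9.80 and 14.7 FPKM in the sulfasalazine libraries, against 12.4, 11.6 and 26.0 FPKM in the control libraries. The highest value of each group was that of replicate 3, and the groups overlapped. Its log2 fold change was -0.47 (95% interval -1.19 to 0.25, limma adjusted p = 0.21), an interval that spans both falls and a small rise. Without control replicate 3 the log2 fold change was -0.11 (adjusted p = 0.62), and leaving out the third library of each group gave -0.31, which passed (adjusted p = 0.0498). Within each library Plau stood at 0.830, 0.912 and 0.523 times the level of Plat in FPKM with sulfasalazine, against 9.46, 7.91 and 3.30 times in controls. By the authors' lengths Plau was thus the more abundant activator transcript in every control library and the less abundant in every treated library. That order in treated cells turns with the length used: by merged exons of GENCODE M21 the mean of Plau ranked 6 and that of Plat 7 with sulfasalazine among the 9 genes.

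Plaur, the gene for the urokinase receptor (ENSMUSG00000046223, chromosome 7, 24462484 to 24475968, plus strand), had 85.5, 100.4 and 139 FPKM in the sulfasalazine libraries, against 260 FPKM, 374 FPKM and 275 FPKM in the control libraries. Every treated library was below every control library, and treated replicate 3 was the nearest to the controls. The log2 fold change was -1.49 (SE 0.21, limma adjusted p = 0.00036). Within a library the receptor transcript exceeded the Plau transcript 11.2, 11.2 and 18.2 times in FPKM with sulfasalazine, against 2.22, 4.09 and 3.20 times in controls. The size of these ratios depends on the gene lengths used. By merged exons of GENCODE M21 the means of Plaur and Plau were 46.9 and 6.44 FPKM with sulfasalazine. In controls they were 131 and 78.5 FPKM.

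Timp1, the gene for the secreted inhibitor TIMP1 (ENSMUSG00000001131, chromosome X, 20870166 to 20874735, plus strand), had 51.0, 50.6 and 53.3 FPKM in the sulfasalazine libraries, against 243, 276 and 310 FPKM in the control libraries. The treated libraries were nearly alike and all lay far below the controls. Timp1 averaged 51.6 ± 1.5 FPKM with sulfasalazine and 276 ± 33.6 FPKM in controls (SD, n = 3 each), and its log2 fold change was -2.39 (SE 0.11, limma adjusted p = 4.4e-06). The gene lies within the span of Syn1 on the other strand in GENCODE M21, with 0% of its exonic bases shared.

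Timp2, the gene for the inhibitor that partners MMP14 (ENSMUSG00000017466, chromosome 11, 118301069 to 118355740, minus strand), had 398, 384 and 322 FPKM in the sulfasalazine libraries, against 420 FPKM, 410 FPKM and 453 FPKM in the control libraries. The groups did not overlap but nearly touched, and the test did not pass (log2 fold change -0.22, 95% interval -0.50 to 0.06, limma adjusted p = 0.14). Timp3, the gene for the matrix-bound inhibitor TIMP3 (ENSMUSG00000020044, chromosome 10, 86300372 to 86349506, plus strand), had 2.22, 2.04 and 3.18 FPKM with sulfasalazine, against 2.65, 5.70 and 10.1 FPKM in control replicates 1, 2 and 3. Its control libraries were uneven, and control replicate 1 lay among the treated ones. The log2 fold change of Timp3 was -0.91 (SE 0.37, limma adjusted p = 0.056). The test passed as lower without control replicate 1 (log2 fold change -1.32, adjusted p = 0.0050), with quantile normalization (adjusted p = 0.014) and with median-of-ratios scaling (adjusted p = 0.034). It did not pass without any 1 of the other libraries (adjusted p = 0.068 to 0.14), and without control replicate 3 the log2 fold change was -0.52 (adjusted p = 0.12). Of the exonic bases of Timp3 in GENCODE M21, 21.3% lie in exons of Syn3 on the opposite strand, and no source used here says whether counting was stranded, so reads of the 2 genes cannot be told apart there.

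Timp1 made up 11.3%, 11.6% and 14.1% of the summed FPKM of the 3 TIMP genes in the sulfasalazine libraries, against 36.5%, 39.9% and 40.1% in the control libraries. The sum was 451, 437 and 378 FPKM with sulfasalazine, against 665, 691 and 773 FPKM in controls, and Timp2 held most of it in every library. The lengths behind FPKM matter for such shares: the recovered reads imply that the authors divided by 858 bases for Timp1 and 2214 for Timp2, while the merged exons of GENCODE M21 span 888 and 3896 bases. With the GENCODE lengths the Timp1 share was 17.8% to 21.9% with sulfasalazine and 49.5% to 53.5% in controls, so the 2 groups stayed apart while the leading TIMP gene in control replicates 2 and 3 became Timp1.

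**Figure D2:**
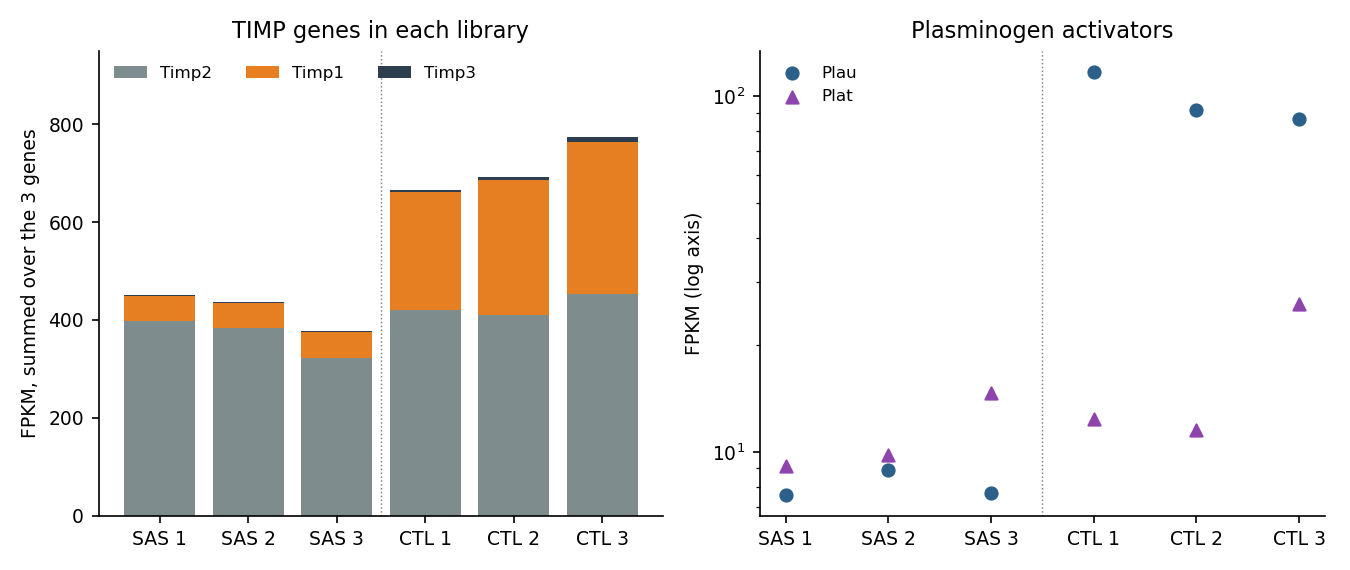
Left, FPKM of Timp2, Timp1 and Timp3 stacked for each of the 3 sulfasalazine (SAS) and 3 control (CTL) libraries. Right, FPKM (log axis) of Plau and Plat in the same libraries; by the authors' gene lengths, Plau is above Plat in every control library and below it in every treated library.

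Mmp14, the gene for the membrane-anchored collagenase MT1-MMP (ENSMUSG00000000957, chromosome 14, 54431612 to 54445364, plus strand), had 270 FPKM, 267 FPKM and 240 FPKM in the sulfasalazine libraries, against 339 FPKM, 290 FPKM and 386 FPKM in the control libraries. All treated libraries lay below all controls, by a small margin. The log2 fold change was -0.38 (SE 0.13, limma adjusted p = 0.032). The call was lost under quantile normalization (log2 fold change -0.19, adjusted p = 0.20) and without control replicate 1 or any 1 of the 3 sulfasalazine libraries (log2 fold change -0.41 to -0.32, adjusted p = 0.065 to 0.095), and without the third library of both groups (-0.22, adjusted p = 0.088). The level of Mmp14 over that of Timp2 was 0.677, 0.695 and 0.746 with sulfasalazine and 0.808, 0.707 and 0.852 in controls, and these ranges overlapped. The size of this ratio depends on the gene lengths used. By merged exons of GENCODE M21 the means of Mmp14 and Timp2 were 61.7 and 209 FPKM with sulfasalazine. In controls they were 80.6 and 243 FPKM.

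Mmp15, the gene for the related membrane-anchored protease MT2-MMP (ENSMUSG00000031790, chromosome 8, 95352268 to 95375080, plus strand), had 28.5, 27.9 and 29.3 FPKM in the sulfasalazine libraries, against 3.13, 2.88 and 5.80 FPKM in control replicates 1, 2 and 3. The treated libraries were nearly alike, and among the controls replicate 3 was the highest. Mmp15 averaged 28.6 ± 0.71 FPKM with sulfasalazine and 3.94 ± 1.62 FPKM in controls (SD, n = 3 each), a ratio of means of 7.26, and its log2 fold change was 2.63 (SE 0.22, limma adjusted p = 3.2e-05). Mmp15 ranked 171 from the most positive among all tested genes. Mmp14 stayed the more abundant of these membrane protease transcripts in FPKM, by 9.45, 9.57 and 8.19 times with sulfasalazine, against 108, 100.4 and 66.7 times in controls. The size of that gap depends on the lengths: by merged GENCODE exons the means of Mmp14 and Mmp15 were 61.7 and 14.7 FPKM with sulfasalazine and 80.6 and 2.03 FPKM in controls.

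Adamts1, the gene for a secreted protease of proteoglycans such as versican and aggrecan (ENSMUSG00000022893, chromosome 16, 85793827 to 85803113, minus strand), was near the detection limit with sulfasalazine. It had 0.0170, 0.0185 and 0.0573 FPKM in the treated libraries, against 0.603, 1.04 and 0.713 FPKM in the control libraries, and so missed the filter. These values stood for 1, 1 and 3 reads with sulfasalazine and 32, 59 and 31 reads in controls. The pooled read rate with sulfasalazine over control was 0.0380, with an exact 95% interval of 0.0121 to 0.0911 that covers counting error only. Without the filter the log2 fold change on log2(FPKM + 1) was -0.79 (SE 0.09, limma adjusted p = 0.00046), a scale that understates the change of so low a gene, and limma voom on the recovered reads without a filter gave -4.43 (adjusted p = 0.00015). Without the filter 52.9% of all genes were called.

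**Figure D3:**
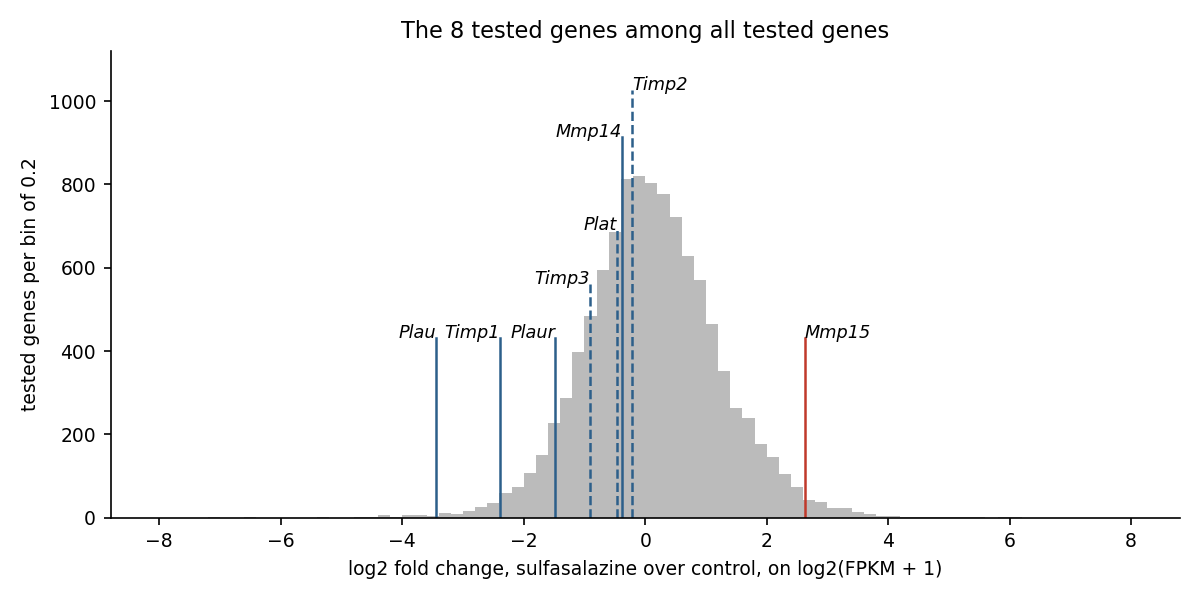
Number of tested genes per bin of log2 fold change (grey bars), with the 8 tested genes of the group as vertical lines (solid where past the threshold, dashed where not; blue lower, red higher). Plau at -3.44 and Timp1 at -2.39 lie in the lower tail, Mmp15 at 2.63 in the upper tail, and Mmp14, Plat and Timp2 near the centre.

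Proximal promoter sequence was available from RefSeq (GRCm38.p6) for 7 of the 9 genes, all but Plau and Plat. The windows of Plaur and Timp1, which fell, and of Mmp15, which rose, are shown 5′ to 3′ on the gene's strand because each holds a match to a motif searched and the gene passed the test under every alternative run. The windows of Timp3, Mmp14 and Adamts1 held no match, although Mmp14 was also called and the read rate of Adamts1 differed more than that of Plaur. Each runs from 250 bases before the annotated start to 50 bases after it, at chr7:24462233-24462532, chrX:20869916-20870215 and chr8:95352046-95352345, all on the plus strand. Capitals mark matches, on either strand, to the AP-1 motif TGANTCA, its variant TGANTAA or the antioxidant response element core TGACNNNGC.
Plaur: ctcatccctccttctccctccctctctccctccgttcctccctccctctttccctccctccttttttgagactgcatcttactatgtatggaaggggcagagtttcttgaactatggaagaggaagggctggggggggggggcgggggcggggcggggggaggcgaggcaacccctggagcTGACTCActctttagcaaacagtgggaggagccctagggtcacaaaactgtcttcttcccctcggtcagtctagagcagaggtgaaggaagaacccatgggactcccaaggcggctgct
Timp1: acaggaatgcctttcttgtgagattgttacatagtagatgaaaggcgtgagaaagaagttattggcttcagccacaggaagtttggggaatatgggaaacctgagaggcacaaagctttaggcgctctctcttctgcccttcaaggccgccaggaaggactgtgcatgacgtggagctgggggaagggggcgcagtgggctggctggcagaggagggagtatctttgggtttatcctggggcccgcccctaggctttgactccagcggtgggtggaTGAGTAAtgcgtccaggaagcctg
Mmp15: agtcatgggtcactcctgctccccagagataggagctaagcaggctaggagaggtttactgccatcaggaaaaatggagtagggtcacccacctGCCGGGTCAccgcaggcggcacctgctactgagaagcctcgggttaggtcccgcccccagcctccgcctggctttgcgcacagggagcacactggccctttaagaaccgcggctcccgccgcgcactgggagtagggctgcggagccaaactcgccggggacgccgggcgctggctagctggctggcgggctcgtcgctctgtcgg
The Plaur window holds TGACTCA at bases -69 to -63 from the start, which reads as the AP-1 motif on both strands. The Timp1 window holds TGAGTAA at bases 27 to 33 after the start. The Mmp15 window holds GCCGGGTCA at bases -156 to -148, a match to the antioxidant response element core on the minus strand, and the Timp2 window holds another at bases -152 to -144. The AP-1 motif occurs in 7.81% of the 32851 promoter windows of RefSeq, the variant in 10.6% and the element core in 12.4%. None of the 7 windows matched the NF-kB consensus, which 4.51% of all windows hold. A match describes letters in a window and not a site in use.

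In the authors' deposited table, 7 of the 9 genes were lower and 1 higher at an adjusted p under 0.05, where 26.8% of all its genes were lower and 55.0% were called in either direction. The authors' deposited table calls Plat (log2 fold change -0.68, adjusted p = 0.046), Timp3 (-1.42, adjusted p = 0.0017) and Adamts1 (-4.70) as lower, which the limma fit above did not call or did not test. For Timp2 the authors' deposited table gives -0.31 with an adjusted p of 0.12.

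The order of the genes by FPKM with sulfasalazine was Timp2, Mmp14, Plaur, Timp1, Mmp15, Plat, Plau, Timp3 and Adamts1, and no neighbours in it overlapped between libraries. In controls the order was Timp2, Mmp14, Plaur, Timp1, Plau, Plat, Timp3, Mmp15 and Adamts1, and Mmp14 with Plaur, Plaur with Timp1, and Timp3 with Mmp15 overlapped. Mmp15 thus stood at place 5 with sulfasalazine and place 8 in controls, and Plau at place 7 with sulfasalazine and place 5 in controls. FPKM recomputed with merged GENCODE exons put Mmp15 at place 5 with sulfasalazine and place 7 in controls, and Plau at place 6 with sulfasalazine and place 5 in controls. These lengths also put Timp1 at place 3, Plaur at place 4 and Plat at place 7 with sulfasalazine. There the ranges of Timp1 (48.9 to 51.5 FPKM) and Plaur (37.0 to 60.3 FPKM) overlapped. In controls these lengths put Timp1 first, at a mean of 267 against 243 for Timp2 with overlapping ranges, Mmp14 at place 4 and Timp3 at place 8. The control ranges of Mmp14 and Plau, and of Mmp15 and Timp3, overlapped as well. The length implied for Mmp14, for example, is 1420 bases where its merged exons span 5960.

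Of 22 other genes listed for the plasminogen system, 17 stood in the table and 10 passed the filter. Of these 6 fell and 1 rose, with a median log2 fold change of -0.73. Over all tested genes 29.3% fell and 37.2% rose, with a median of 0.08, and these shares stand beside each list below. Thbd, encoding thrombomodulin, had 13.0, 13.7 and 11.1 FPKM with sulfasalazine, against 49.9, 67.3 and 26.5 FPKM in controls (log2 fold change -1.75, SE 0.30). S100a10, whose product binds plasminogen at the cell surface together with annexin A2, had 109, 129 and 144 FPKM with sulfasalazine, against 335, 360 and 239 FPKM in controls (log2 fold change -1.27). Vldlr, encoding an endocytic receptor of the low-density lipoprotein receptor family, fell by 1.21 on the log2 scale, and Hgfac, encoding a serine protease that activates hepatocyte growth factor, fell by 0.85. The Hgfac call was lost without control replicate 1, control replicate 2 or sulfasalazine replicate 2 (adjusted p = 0.051 to 0.065).

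Of 21 other matrix metalloproteinase genes 15 were in the table and only 5 passed the filter, of which 2 rose and 2 fell. Mmp13, encoding the collagenase of bone and cartilage, had 0.811, 0.238 and 1.01 FPKM with sulfasalazine, against 17.7, 1.95 and 12.2 FPKM in control replicates 1, 2 and 3 (log2 fold change -2.45, SE 0.61, limma adjusted p = 0.0077). Control replicate 2 was far below the other controls but above all treated libraries. The size of the Mmp13 change varied with the libraries and scale: it was -3.25 without control replicate 2, -1.92 without control replicate 1, -3.45 with a pseudocount of 0.1 and -3.62 with voom on recovered reads, and it passed in all 4. Mmp11, encoding stromelysin 3, rose, with 41.3, 41.0 and 37.1 FPKM with sulfasalazine and 8.67, 10.9 and 19.4 FPKM in controls (log2 fold change 1.62). Mmp19 was called lower (-0.99, adjusted p = 0.045), a call that each of the 5 fits lacking another library than control replicate 1 lost (adjusted p = 0.050 to 0.11), with a log2 fold change of -0.53 without control replicate 3. The gelatinase genes missed the filter: Mmp2 averaged 0.165 ± 0.092 FPKM with sulfasalazine and 0.217 ± 0.147 FPKM in controls. Mmp9 averaged 0.188 ± 0.103 FPKM with sulfasalazine and 0.964 ± 0.768 FPKM in controls (SD, n = 3 each). Every treated library of Mmp9 lay below every control library, on 3 to 8 reads with sulfasalazine and 11 to 39 reads in controls. Without the filter limma did not call Mmp9 (adjusted p = 0.060), while the authors' deposited values call it lower (log2 fold change -2.41, adjusted p = 0.0011).

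Of 33 ADAM, ADAMTS and ADAMTS-like genes 22 stood in the table and 11 passed the filter, with 4 higher and 5 lower, with a median log2 fold change of 0.01. Adamts14, encoding a procollagen N-propeptidase, had 3.54, 3.07 and 3.39 FPKM with sulfasalazine, against 15.7, 12.7 and 26.3 FPKM in controls (log2 fold change -2.09, SE 0.25). Adamtsl5 fell by 1.43 and the sheddase gene Adam9 by 0.85 on the log2 scale, while Adam15, encoding another membrane-anchored metalloprotease, rose (1.08, SE 0.22).

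Among 10 regulators of metalloproteinases 6 passed the filter, with 4 higher and 2 lower, with a median log2 fold change of 0.60. Pcsk6, encoding the proprotein convertase PACE4, had 185.6, 184.9 and 186 FPKM with sulfasalazine, against 20.9, 30.6 and 31.9 FPKM in controls (log2 fold change 2.72, SE 0.16, limma adjusted p = 8.6e-06). Furin, encoding the convertase that activates proMMP14, had 97.4, 97.5 and 98.7 FPKM with sulfasalazine, against 196 FPKM, 172 FPKM and 183 FPKM in controls (log2 fold change -0.90, SE 0.10). The treated values of both convertase genes were nearly alike, and the genes moved in opposite directions. The tetraspanin genes Cd151 (log2 fold change 1.22), whose human product is known to associate with MMP14, and Tspan14 (0.68), which partners the sheddase ADAM10, rose. Reck, encoding a membrane-anchored metalloproteinase inhibitor, missed the filter, with a mean of 0.465 ± 0.218 FPKM with sulfasalazine and 0.173 ± 0.142 FPKM in controls (SD, n = 3 each). Its groups overlapped, and without the filter limma did not call it (adjusted p = 0.070). The authors' deposited values call Reck higher (log2 fold change 1.34, adjusted p = 0.038). Over the 4 lists 32 genes passed the filter, with 11 higher and 15 lower, with a median log2 fold change of -0.38. Over all tested genes 37.2% were higher and 29.3% lower, with a median of 0.08.

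**Figure D4:**
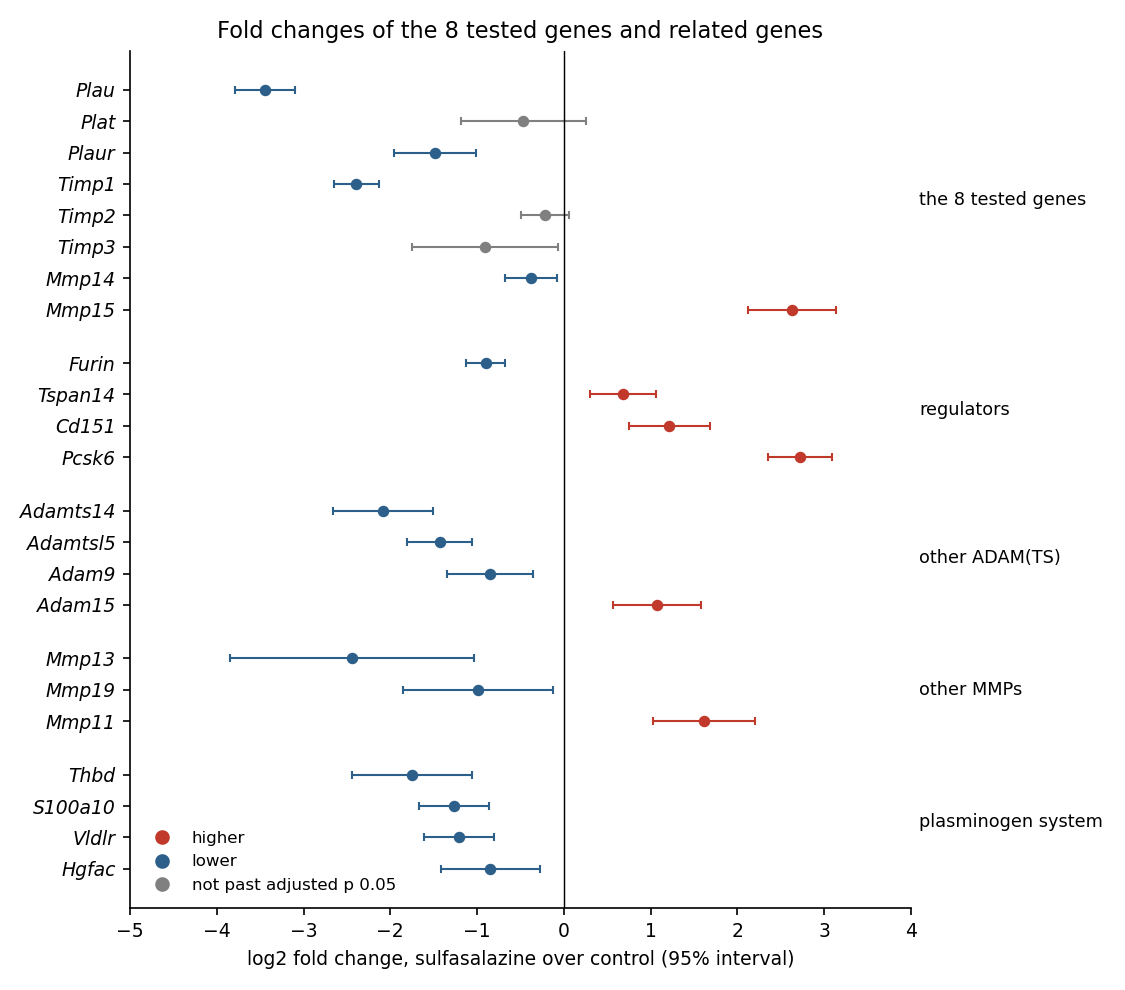
Log2 fold change of sulfasalazine over control with its 95% interval for the 8 tested genes and the named related genes (red higher, blue lower, grey not past an adjusted p of 0.05). Plau is lowest at -3.44, and Pcsk6 at 2.72 and Mmp15 at 2.63 are highest among the genes drawn.

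The genes whose log2(FPKM + 1) followed Plau most closely over the 6 libraries, by Pearson's r as a description, were Maff (0.9998), Pip5k1a (0.9994) and Otud3 (0.9993). Maff, encoding a small MAF transcription factor, had 40.0, 47.7 and 41.1 FPKM with sulfasalazine, against 383, 316 and 286 FPKM in controls. For Timp1 they were Prss56 (0.9996), Ccdc12 (0.9995) and Cd53 (0.9994), and for Mmp14 they were Eef1aknmt (0.9990), Traf4 (0.9939) and Wtip (0.9920). These values rest mainly on the shared difference between the groups.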

How the data were processed

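Total RNA was depleted of ribosomal RNA and sequenced as paired ends on an Illumina NovaSeq, per the labels' protocols, which name an extraction kit sold for plants and a depletion kit sold for bacteria. The labels give a single batch for the 6 samples. Per the submitters' processing notes, which assign no roles, the tools were HISAT2 2.2.1, fastp 0.23.0, edgeR and HTSeq 0.13.5 and the build mm39. The authors deposited FPKM per library, a library-size-adjusted signal per library, and the authors' log2 fold change, p-value and adjusted p-value per gene. Of 14003 genes, 13849 had the start and end of GENCODE M21, which is on GRCm38, so coordinates are given as GRCm38. A second deposited table of genes the authors selected was not used.

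FPKM times length falls in steps of 1 read. For 100.0% of genes a set of reads whole within 1e-05 in all 6 libraries was found, and the set nearest the authors' adjusted signal was taken. The sets were sought for being whole, so this share is no separate check of the recovered reads. For 10.6% of genes the implied length equalled that of the merged M21 exons. The implied length was a whole number for 13998 genes, with a median of 0.426 times the merged M21 exons.

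Genes reaching 1 FPKM in 3 or more libraries were tested two-sided with limma 3.58.1 in R 4.3.3 on log2(FPKM + 1), with eBayes' trend option and Benjamini-Hochberg adjustment. The fold change on this scale understates changes of low genes. The fit was also run on simulated reads, with 200 genes drawn as changed and a dispersion of 0.02 for every gene. That setting is simpler than these data, where 66.5% of tested genes were called, so it does not check the calls made here. Reads were recovered in Python 3.11.15 using pandas 2.3.3 and numpy 2.4.6.

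The genes and lists were chosen with earlier results of these data known. Named genes are the 9 genes, fixed related genes (Mmp2, Mmp9, Mmp13, Furin, Reck, and 1 that is not reported here), and up to 4 called genes per list with the largest change, no overlap between groups and a higher mean of at least 5 FPKM, and for Plau, Timp1 and Mmp14 the 3 genes of most similar pattern. Alternatives are given under the closing observations, and voom on recovered reads was added after the data were seen.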

Additional observations from a re-analysis of the deposited data

How the results depend on the processing

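Plau, Plaur, Timp1 and Mmp15 kept their direction and passed under each of the 18 alternatives run, at log2 fold changes of -3.59 to -3.31, -1.74 to -1.32, -2.52 to -2.28 and 2.45 to 2.96, and the counts of the 9 genes called were 1 higher and 3 to 5 lower. Timp2 passed under none (adjusted p = 0.064 to 0.43). No gene named in a test reversed. With an absolute log2 fold change of at least 1 required, the counts were 1990 higher and 1440 lower over all genes and 5 higher and 8 lower over the related genes, and with a filter of 5 FPKM 9 related genes were lower; fewer genes can pass by construction. Median-of-ratios scaling and quantile normalization moved the median log2 fold change of all genes by -0.12 and -0.11 from 0.08, and the share of calls that were higher was 49.3% and 49.7%, against 55.9%. Leaving out each library in turn gave 3387 to 4206 genes higher and 2454 to 3527 lower. Deviations of same-numbered libraries from their group means correlated at 0.04, -0.19 and -0.17. With 3 libraries per group these values cannot decide whether the numbers pair the libraries. With the replicate number as a block 3649 genes were higher and 2771 lower. Mmp14 was then lost (limma adjusted p = 0.070) and Timp3 passed the threshold (0.022). The block lowered the SE of Plat from 0.312 to 0.19 and that of Timp3 from 0.367 to 0.265, and raised that of Mmp14 from 0.13 to 0.154. Voom on recovered reads with the same filter, chosen after the data were seen, called the same 5 of the 9 genes. Adamts1 is limited by depth, at 1 to 3 reads per treated library. Why calls changed was not tested.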
